A study of Mus musculus with 22 samples.

Results

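Transcript levels of 35 mouse genes of integrins, selectins and their ligands were read in 22 poly(A) RNA libraries of primary cells, tissues and a lymphoma line. The genes were chosen by name: 18 integrin alpha subunits, 8 integrin beta subunits, the 6 ligands Icam1, Icam2, Icam4, Icam5, Vcam1 and Madcam1, and the 3 genes Selp, Sele and Selplg. They are 35 of 20674 protein-coding genes in the files. The choice rests on gene names, and it was made with earlier results of these data known.

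Integrins are cell-surface receptors made of 1 alpha and 1 beta subunit, so that the pair a cell expresses sets what it can bind. On leukocytes they hold cells to vessel walls and to each other through ligands of the immunoglobulin superfamily (the ICAMs, VCAM1 and MAdCAM1), and on most other cells they bind matrix proteins such as laminin, collagen and fibronectin. Selectins on endothelium and platelets bind sugar structures carried by PSGL1, the product of Selplg, and start the rolling of leukocytes along vessels.

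Each of the 22 groups had 1 library. The CD4 T-cell libraries were CD4+ T cells, non-Tfh activated T cells (sorted as CD4+CD44+CXCR5-PD1-CD25-), Tfhs (follicular helper T cells, which help B cells in follicles) and Tfrs (follicular regulatory T cells, sorted as CD4+CD44+CXCR5+PD1+CD25+), each also as a library marked MUT, and CD4+ T cells activated with ConA, a T-cell mitogen. The B-cell libraries were splenic B cells and 6 cultures activated with aBCD180, aCD40+IL4, LPS alone, LPS+a-d-dextran, LPS+IL21 or LPS+IL4, and the CH12 B-lymphoma line, clone bc5. The others were basophils, back skin and 3 brain regions (putamen, medulla oblongata and sensorimotor cortex). Per the labels, mature B cells came from C57BL/6J spleen by negative selection. The labels name no mutation, give no sort for the CD4+, Tfh or basophil libraries, and give no age or number of animals. CH12 is 1 clone.

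Total expected counts ran from 30.8 to 147.9 M per library. Groups without a second library were tested by setting the unmarked and MUT libraries of a population together (n = 2) or by lineage, so the p-values reflect differences among these libraries alone, and part of that spread may be technical. Levels are TPM, which are corrected for gene length and can be compared between genes. The summed TPM of 8 T-cell markers was 3225.4 to 7708.8 in the T-cell libraries, and the sum of 8 B-cell markers was 2181.3 to 12548.0 in the B-cell libraries. The B-cell markers also reached 712.6 TPM in Tfh MUT and 511.2 in Tfr, against 93.8 to 181.9 in the other 6 libraries of these T populations. These 2 libraries therefore stood apart, and the counts of called genes are also given for fits without both.

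Of the 35 genes, 24 had an entry in the RefSeq promoter table (GRCm38.p6). The 250 bases before the RefSeq start are shown for 4 of them, because each was high in a few libraries only: Itgb8 in Tfh, Tfr and brain, Madcam1 in CH12, Itga2b in basophils and Icam5 in forebrain. Capitals mark matches, on either strand, to 6 short motifs: AGATAA for factors of the Gata family, TGNGGT for RUNX factors, CAGAC for SMAD factors, TGANTCA for AP-1, GAGGAA for PU.1 and GGGCGG for the GC box.
Itgb8, chr12:119238277-119238526, minus strand: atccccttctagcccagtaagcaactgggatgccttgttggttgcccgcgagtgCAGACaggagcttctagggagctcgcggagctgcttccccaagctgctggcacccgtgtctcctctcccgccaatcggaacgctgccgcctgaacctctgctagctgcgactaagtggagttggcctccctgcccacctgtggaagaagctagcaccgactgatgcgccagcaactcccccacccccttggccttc
Madcam1, chr10:79664309-79664558, plus strand: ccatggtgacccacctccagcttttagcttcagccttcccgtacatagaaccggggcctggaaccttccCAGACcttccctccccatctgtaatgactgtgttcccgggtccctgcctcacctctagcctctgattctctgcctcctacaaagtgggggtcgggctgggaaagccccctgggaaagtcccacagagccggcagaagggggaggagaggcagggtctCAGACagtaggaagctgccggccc
Itga2b, chr11:102469884-102470133, minus strand: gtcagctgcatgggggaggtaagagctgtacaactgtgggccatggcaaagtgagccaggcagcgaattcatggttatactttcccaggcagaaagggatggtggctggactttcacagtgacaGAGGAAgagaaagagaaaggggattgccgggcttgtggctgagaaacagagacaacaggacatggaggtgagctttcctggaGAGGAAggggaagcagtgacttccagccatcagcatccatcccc
Icam5, chr9:21031788-21032037, plus strand: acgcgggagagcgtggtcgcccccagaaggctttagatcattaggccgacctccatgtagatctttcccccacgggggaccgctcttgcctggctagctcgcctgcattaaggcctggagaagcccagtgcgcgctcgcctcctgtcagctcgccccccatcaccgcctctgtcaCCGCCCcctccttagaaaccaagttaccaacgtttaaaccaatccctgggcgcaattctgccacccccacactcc
Itgb8 held 1 match and Madcam1 held 2, all to the SMAD letters, which 42.2% of 32851 promoters of this length held. Itga2b held 2 matches to the PU.1 letters (23.3% of promoters) and Icam5 held 1 to the GC box (32.7%). None of the 4 windows held the Gata (9.99%), RUNX (40.1%) or AP-1 (6.75%) letters. A match is a description of the sequence and not a binding site. The RefSeq and GENCODE starts differ for 2 of the 4 genes. In GENCODE, Itgb8 starts at 119238802 on the minus strand, so its whole window lies inside the gene. Itga2b starts at 102470122 on the minus strand, so most of its window does too.

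Several of the genes are neighbours. In the GENCODE annotation of GRCm38, Itgam, Itgax and Itgad lie in that order on chromosome 7 from 128062640 to 128223816, with gaps of 11.1 and 3.7 kb, and Itgal lies 727.5 kb before them. Icam1, Icam4 and Icam5 lie on chromosome 9 from 21015985 to 21039036, with gaps of 0.6 and 1.5 kb, and all 3 overlap the antisense gene Gm47079. Itgb8, Madcam1, Itgb1, Itgb3 and Itgb7 overlap no other annotated gene. Whether the counting used strand is not given in the sources used here, so reads of overlapping genes on opposite strands may be shared.

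Across all libraries 31 of the 35 genes reached 5 TPM in at least 1 library. Itga10, Itga11, Itgb6 and Sele stayed under 5 TPM in every one. Only Itgav and Itgb1, the subunits with the widest choice of partners, reached 5 TPM in all 22 libraries. Another 7 genes reached it in 1 library only. In the map of all values, Itgal, Itgb2 and Itgb7, which encode the leukocyte subunits, are bright over the T-cell columns and dark over the brain and skin columns.

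**Figure D1:**
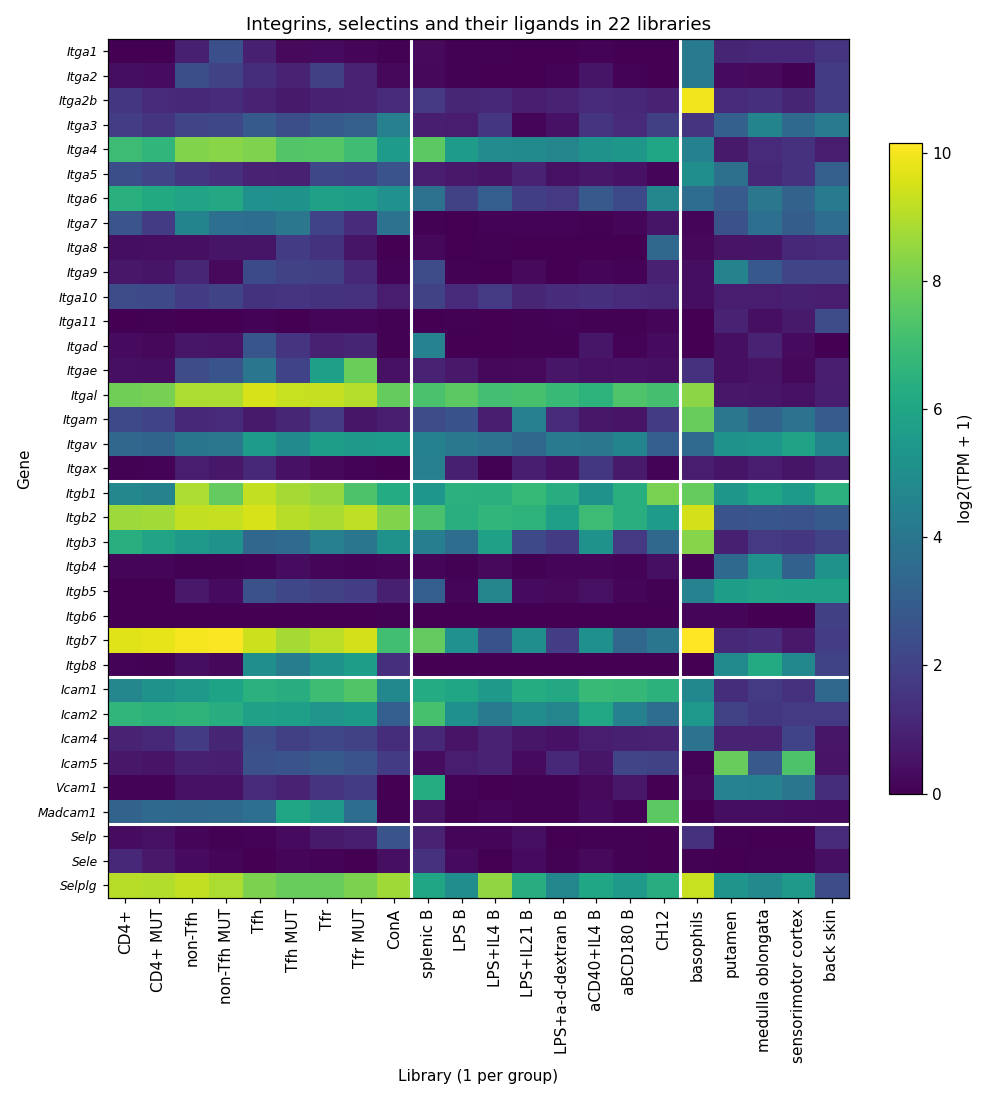
Colour map of log2(TPM + 1) for the 35 genes (rows: alpha subunits, beta subunits, ligands, then selectins and Selplg) in 22 libraries (columns: T cells, B cells with CH12, then the others). Itga2b is bright in the basophil column alone (981.94 TPM), and Madcam1 is brightest in CH12 (191.68 TPM).

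Itgb8 encodes the subunit that pairs with alpha-v, the product of Itgav, and the pair releases active TGF-beta from its latent complex. Its level was 32.19 TPM in Tfh, 18.04 in Tfh MUT, 36.03 in Tfr and 48.75 in Tfr MUT. The non-Tfh pair held 0.29 and 0.17 TPM, the CD4+ pair 0.06 and 0.04, and ConA 1.59. All 4 follicular libraries lay above every other T-cell library. Itgb8 was at most 0.02 TPM in the 7 primary B libraries and listed at 0.00 in CH12. Itgb8 rose in Tfh against non-Tfh (log2 fold change 6.63 ± 0.47, SE, edgeR adjusted p = 0.00487) and in Tfr against non-Tfh (7.44 ± 0.49, edgeR adjusted p = 0.00191). Between Tfr and Tfh the difference was 0.81 ± 0.36 (edgeR adjusted p = 0.555). The call against non-Tfh held in all 8 runs that each left out 1 library for Tfr (highest adjusted p = 0.047), and in 6 of 8 for Tfh. It was lost for Tfh without the non-Tfh or the non-Tfh MUT library (highest edgeR adjusted p = 0.135), with log2 fold changes between 6.09 and 7.20 in the 8 runs.

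Itgav was 46.61 TPM in Tfh, 28.36 in Tfh MUT, 48.72 in Tfr and 43.69 in Tfr MUT. The non-Tfh pair held 14.36 and 15.18. The follicular and non-Tfh libraries did not overlap. Itgav rose in Tfh against non-Tfh (1.16 ± 0.21, edgeR adjusted p = 0.0342) and in Tfr against non-Tfh (1.46 ± 0.21, edgeR adjusted p = 0.0108). The Tfh call was lost without either non-Tfh library and without either CD4+ library (highest edgeR adjusted p = 0.221), and the Tfr call without either non-Tfh library (highest edgeR adjusted p = 0.1). ConA, which held 1.59 TPM of Itgb8, had 48.32 TPM of Itgav, so a level of Itgav like that of the follicular cells occurred there at a low level of Itgb8. Outside T cells Itgb8 was highest in the brain, at 26.83 TPM in putamen, 73.31 in medulla oblongata and 25.94 in sensorimotor cortex, where Itgav was 36.05, 39.33 and 57.10. Back skin held 3.20 TPM of Itgb8.

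**Figure D2:**
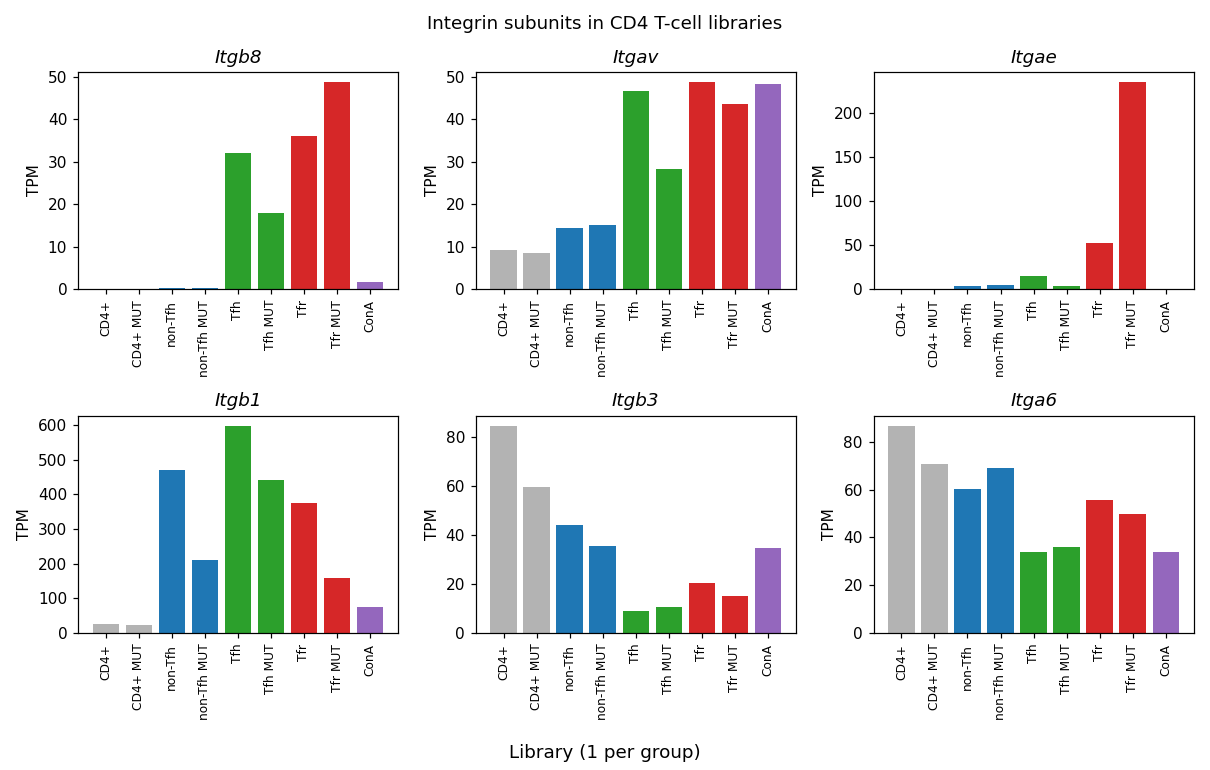
Bars give the TPM (y axis, from 0) of 6 integrin subunit genes in the 9 CD4 T-cell libraries (x axis, 1 library per bar, coloured by population). Itgb8 stands at 18.04 to 48.75 in the 4 follicular libraries and at or below 1.59 in the other 5, and Itgb3 and Itga6 are highest in CD4+ (84.33 and 86.71).

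Other genes of latent TGF-beta handling, from a list of 17 genes, gave 2 higher and 3 lower of 16 tested in Tfh against non-Tfh, and 4 higher and 4 lower in Tfr against non-Tfh. Over all genes tested 4.03% were higher and 2.56% lower in the first comparison, and 7.88% and 6.71% in the second. Lrrc32, which displays latent TGF-beta on the surface of regulatory T cells, was 11.67 and 6.82 TPM in the Tfh pair and 105.14 and 170.48 in the Tfr pair, against 0.86 and 2.19 in the non-Tfh pair. It rose in Tfh (2.56 ± 0.49, edgeR adjusted p = 0.0392) and in Tfr (6.34 ± 0.56, edgeR adjusted p = 0.00312). Nrros, a related presenter of latent TGF-beta, fell in Tfh against non-Tfh (-1.01 ± 0.17, edgeR adjusted p = 0.0279). In Tfr, the ligand gene Tgfb3 (-3.59 ± 0.44) and the co-receptor gene Tgfbr3 (-3.02 ± 0.29) fell and the receptor gene Tgfbr1 rose (1.52 ± 0.25), at edgeR adjusted p of 0.00644, 0.00371 and 0.0163. The median log2 fold change of the list was -0.23 in Tfh and -0.05 in Tfr, against 0.02 for all genes tested in both.

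In Tfh against non-Tfh as a whole, 34 of the 35 genes were tested, 5 were higher and 3 lower, where 4.03% of all 13064 genes tested were higher and 2.56% lower. Beside Itgb8 and Itgav, the genes that rose were Icam5, Itgad and Itgb5, and those that fell were Itgb3, Itga6 and Selplg. Itgb3 encodes the common partner of alpha-v and of the platelet subunit. The Tfh pair held 9.07 and 10.75 TPM and the non-Tfh pair 43.86 and 35.40, without overlap (-2.14 ± 0.19, edgeR adjusted p = 0.00769). Itgb5, another partner of alpha-v, was 4.68 and 3.45 TPM against 0.61 and 0.22 (3.23 ± 0.51, edgeR adjusted p = 0.0225). Beta-subunit genes that pair with alpha-v thus moved in both directions between these populations. Itga6, a laminin receptor subunit, was 33.71 and 36.15 TPM against 60.51 and 69.25 (-1.05 ± 0.14, edgeR adjusted p = 0.0144). Selplg was 280.14 and 217.63 TPM against 600.67 and 483.01 (-1.28 ± 0.25, edgeR adjusted p = 0.0402). Its call was lost without Tfh MUT, either non-Tfh library or either CD4+ library, with log2 fold changes of -1.53 to -1.07 over the leave-outs. Itgad was 5.55 and 1.85 TPM against 0.53 and 0.45. The Itgad call was lost without either non-Tfh or either CD4+ library, and under limma. The count of 8 called genes was 0 without the non-Tfh library, 0 without non-Tfh MUT, 5 without either CD4+ library, and 16 without Tfh. The count rose without the Tfh MUT and Tfr libraries together, an alternative chosen after seeing the data, and so did the calls over all genes.

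Matrix ligands of integrins gave 4 higher and 0 lower of 15 tested in Tfh against non-Tfh, and 7 and 0 in Tfr against non-Tfh (median log2 fold changes 1.90 and 2.50, against 0.02 for all genes). The shares of all genes called higher were 4.03% and 7.88%. Spp1, which encodes osteopontin, a ligand of alpha-v integrins, was 93.50 TPM in Tfh, 24.26 in Tfh MUT, 9.34 in Tfr and 19.24 in Tfr MUT, and 0.09 and 0.25 in the non-Tfh pair. It rose by 8.14 ± 1.05 in Tfh and 6.09 ± 0.98 in Tfr (edgeR adjusted p = 0.0143 in both). Lamc1, a laminin chain, was 16.11, 12.47, 55.93 and 52.86 TPM in the same 4 follicular libraries, against 3.51 and 3.33. It rose in Tfh (1.90 ± 0.19, edgeR adjusted p = 0.00885) and Tfr (3.81 ± 0.20, edgeR adjusted p = 0.00143). Of 23 tested genes of integrin activation and linkage, 0 were higher and 2 lower in Tfh, and 0 and 4 in Tfr, where 2.56% and 6.71% of all genes were lower. Rasgrp2, which activates the small GTPase that switches integrins on, fell in both. It was 129.16 and 103.39 TPM in the Tfh pair and 52.69 and 40.61 in the Tfr pair, against 309.12 and 241.55 in the non-Tfh pair (-1.40 ± 0.12 and -2.74 ± 0.12, edgeR adjusted p = 0.00748 and 0.00118).

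Tfr cells were set against Tfh cells, the comparison of the follicular populations with each other. No gene of the 35 was called by edgeR (11 had an unadjusted p under 0.05), while DESeq2 called 8 and limma 0. Over all genes edgeR called 0.398% (52 of 13064), DESeq2 called 632 of 20674 and limma 98 of 11681. Itgae encodes the alpha-E subunit, which with beta7 binds E-cadherin on epithelium. Its level was 51.96 TPM in Tfr and 235.27 in Tfr MUT, against 15.00 and 3.09 in the Tfh pair. The pairs did not overlap, but the members of each pair lay far apart (3.92 ± 1.10, edgeR adjusted p = 0.253). Itga5, the fibronectin receptor subunit, was 3.62 and 3.16 TPM against 0.94 and 0.89 (1.86 ± 0.26, edgeR adjusted p = 0.0658). Itga7, a laminin receptor subunit, was 3.10 and 1.41 TPM against 11.78 and 15.17 (-2.77 ± 0.39, edgeR adjusted p = 0.0657). The count was 5 without Tfh, 4 without Tfh MUT, and 10 without the Tfh MUT and Tfr libraries together.

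Against non-Tfh cells, Tfr cells had 8 higher and 6 lower genes of 34 tested, where 7.88% of all genes were higher and 6.71% lower. Beside Itgb8 and Itgav, Itgae, Itgb5, Icam1, Icam5, Vcam1 and Selp rose. Itga4, Itga7, Itgax, Itgb3, Icam2 and Selplg fell. Icam1, the main ligand of the integrin LFA-1, was 125.56 TPM in Tfr and 167.20 in Tfr MUT, against 43.29 and 58.37 in the non-Tfh pair (1.35 ± 0.20, edgeR adjusted p = 0.0118). Icam2, a further ligand of LFA-1, lay the other way round, at 38.12 and 45.25 TPM against 95.59 and 79.85 (-1.24 ± 0.19, edgeR adjusted p = 0.013). Neither ligand's groups overlapped. Itga4, whose product pairs with beta1 or beta7, was 175.30 and 129.96 TPM against 301.95 and 320.85 (-1.24 ± 0.21, edgeR adjusted p = 0.0165). Itgae was 3.93 and 5.22 TPM in the non-Tfh pair (4.81 ± 1.07, edgeR adjusted p = 0.0357), and its call was lost in 5 of 8 leave-outs: without either non-Tfh library, either CD4+ library or Tfr MUT (highest edgeR adjusted p = 0.268). The rises of Icam5, Vcam1 and Selp were at low levels, with no T-cell library of these 4 above 6.37 TPM. The fall of Itgax was at low levels too, at 0.15 and 0.06 TPM against 0.77 and 0.57. Its call was lost without either library of the non-Tfh, Tfr or CD4+ pair. The Itga4 call was lost without either non-Tfh or either Tfr library, and the Selplg call without either non-Tfh library, either CD4+ library or Tfr. The 14 called genes were 1 without either library of the non-Tfh pair (Itgb8 in both), 8 with Tfr MUT left out and 9 with either CD4+ library left out. They were 21 without Tfh MUT and 25 without Tfh MUT and Tfr together.

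The CD4+ libraries, whose label gives no further sort, were the reference for the widest differences. Against them, of 34 genes tested, Tfh cells had 16 higher and 7 lower (15.3% and 11.2% of all genes), Tfr cells 12 and 6 (16.8% and 13.6%), and non-Tfh cells 7 and 1 (3.23% and 0.62%). These comparisons share the CD4+ libraries. Itgb1, the partner of most alpha subunits, was 25.29 TPM in CD4+ and 22.11 in CD4+ MUT. It was 470.58 and 210.81 in the non-Tfh pair, 597.83 and 442.45 in the Tfh pair and 374.92 and 159.97 in the Tfr pair. All 6 libraries lay above both CD4+ libraries. Itgb1 rose by 3.60 ± 0.30 in non-Tfh, 4.14 ± 0.31 in Tfh and 3.05 ± 0.29 in Tfr (edgeR adjusted p = 0.00534, 0.000927 and 0.00143), and the Tfh and Tfr calls held in all 8 leave-outs. The non-Tfh call was lost without the non-Tfh library (edgeR adjusted p = 0.0601). CH12 also held 278.17 TPM of Itgb1, and the B-cell markers of Tfh MUT stood at 32.67% of their CH12 level. In CD4+ and CD4+ MUT they stood at 4.30% and 4.55%. The CH12 level of Itgb1 times each library's share equals 47.3% of the Itgb1 level in CD4+ and 57.2% in CD4+ MUT. In the other 6 libraries it equals 3.1% (non-Tfh) to 20.5% (Tfh MUT). These figures rest on the B-cell markers. A set of 20 other genes raised in CH12, described below with Madcam1, had lower medians, at 2.32% of the CH12 level in CD4+ and 1.79% in CD4+ MUT. The part of RNA like that of CH12 in the Itgb1 levels was not tested.

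Itgb3 had the opposite order, at 84.33 TPM in CD4+ and 59.41 in CD4+ MUT. It fell against CD4+ by 0.97 in non-Tfh, 3.11 in Tfh and 2.34 in Tfr on the log2 scale (edgeR adjusted p = 0.0451, 0.000713 and 0.00089). The Tfh and Tfr calls held in all 8 leave-outs, and the non-Tfh call in 2. Itga6 was 86.71 TPM in CD4+ and 70.90 in CD4+ MUT and fell in Tfh (-1.46 ± 0.14, edgeR adjusted p = 0.00172) and Tfr (-0.89 ± 0.14, edgeR adjusted p = 0.00635). Itgal, the alpha subunit of LFA-1, was 248.76 and 270.63 TPM in the CD4+ pair. It was 481.93 and 478.87 in the non-Tfh pair, 738.34 and 631.27 in the Tfh pair and 608.09 and 511.63 in the Tfr pair, and rose in Tfh (1.11 ± 0.15, edgeR adjusted p = 0.0049) and Tfr (0.79 ± 0.15, edgeR adjusted p = 0.0123). Itgb8 and Itgb5 were called higher in Tfh and Tfr, against CD4+ levels of at most 0.06 and 0.01 TPM. The 23 Tfh calls were 8 without CD4+ and 11 without CD4+ MUT, and the 18 Tfr calls were 10 without CD4+ and 12 without CD4+ MUT. Without Tfh MUT and Tfr together they were 29 and 24. The 8 non-Tfh calls were 0 without non-Tfh, 1 without non-Tfh MUT or without either CD4+ library, 5 without either Tfr library, 15 without either Tfh library, and 23 without Tfh MUT and Tfr together.

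The selectin system moved in parts against CD4+. Selplg was 528.11 and 506.29 TPM in the CD4+ pair and fell in Tfh (-1.34 ± 0.25, edgeR adjusted p = 0.0137) and Tfr (-1.33 ± 0.25, edgeR adjusted p = 0.0123). In non-Tfh cells the difference was -0.06 ± 0.25 (edgeR adjusted p = 0.973). Of 12 tested genes that build the sugar ligands of selectins, 3 were higher and 0 lower in Tfh, 4 and 0 in Tfr and 3 and 0 in non-Tfh (median log2 fold changes 0.23, 0.12 and 0.30), beside 15.3%, 16.8% and 3.23% of all genes called higher. Chst2, a sulfotransferase, was 53.22 TPM in Tfh, 29.27 in Tfh MUT, 39.65 in Tfr, 43.67 in Tfr MUT, and 14.95 and 7.65 in the non-Tfh pair, against 0.08 and 0.17 in CD4+. Fut7, a fucosyltransferase, was 8.82 and 5.99 TPM in the Tfh pair against 0.44 in both CD4+ libraries (3.76 ± 0.56, edgeR adjusted p = 0.00696).

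The MUT label was fitted as a term common to the 4 populations. edgeR called 0 of the 35 genes and 0% of all 13064 genes. Unadjusted p was under 0.05 for 4 of the 35, DESeq2 called 0 of them and limma 0. The lowest was that of Itgb1 (-0.73 ± 0.19, edgeR adjusted p = 1), which was lower in the MUT library of each of the 4 pairs. Itgb8 differed by -0.28 ± 0.31 (edgeR adjusted p = 1), lower in the MUT library of the Tfh pair and higher in that of the Tfr pair. Without the Tfh MUT library 1 gene was called, and without Tfh MUT and Tfr 5 were. With 1 library a group, these fits do not show that the MUT cells were alike.

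Madcam1 encodes the vessel ligand of the gut-homing integrin of Itga4 and Itgb7, and is known from endothelium of intestine. It was highest in the CH12 lymphoma line, at 191.68 TPM from 8415 reads, against 0.05 to 0.44 TPM in the 7 primary B libraries. With 1 library on a side there is no test, and a size rule was used (log2(TPM + 1) at least 2 away from every comparison library, and at least 5 TPM on the higher side). By it 2 of 18 eligible genes were higher in CH12, Madcam1 and Itga8, and 2.83% of all eligible genes were. Itga8, a partner of beta1, was 9.40 TPM in CH12 and at most 0.16 in primary B cells. The 8 endothelial markers summed to 60.0 TPM in CH12 and 2.5 to 13.5 in primary B cells. Egfl7 made up 58.02 TPM of the CH12 sum, while Cdh5 was 1.42, Flt1 0.52, Emcn 0.04, Cldn5 0.02 and Tek 0.01 TPM, and Kdr and Tie1 were listed at 0.00. The 3 brain libraries and back skin held at most 0.29 TPM of Madcam1, and basophils were listed at 0.00.

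Madcam1 was also present in T-cell libraries, at 8.52 TPM in CD4+, 9.97 in CD4+ MUT, 9.74 and 10.36 in the non-Tfh pair, 12.24 in Tfh, 60.82 in Tfh MUT, 43.86 in Tfr and 11.81 in Tfr MUT. Tfh MUT and Tfr lay apart from the other 6, and ConA held 0.05 TPM. The summed B-cell markers were also highest in Tfh MUT and next highest in Tfr. As a share of the CH12 value, Madcam1 was 31.73% in Tfh MUT and the summed 8 B-cell markers 32.67%. In Tfr the shares were 22.88% and 23.43%. In Tfh they were 6.39% and 8.34%, in Tfr MUT 6.16% and 6.62%, and in non-Tfh 5.08% and 5.25%. Its MUT counterpart had 5.4% and 5.5%, CD4+ had 4.44% and 4.30%, and CD4+ MUT had 5.20% and 4.55%. ConA, with B-cell markers at 6.0 TPM, lacked both. Itga8 stood at 26.17% of its CH12 level in Tfh MUT and 19.57% in Tfr, and at 3.30% to 5.32% in the other 6. A set of 21 genes at 10 TPM or more in CH12 and at least 20 times their level in each of 13 libraries outside the 8 T-cell ones, chosen after seeing the data, included Madcam1. Of the other 20, 16 had their highest levels among the 8 libraries in Tfh MUT and Tfr. Over all 20 the median was 13.22% of the CH12 level in Tfh MUT (0.00% to 44.79%) and 9.89% in Tfr (0.00% to 32.20%). In the other 6 libraries the median was 1.79% (CD4+ MUT) to 3.42% (Tfh). Primary B libraries, with B-cell markers at 2407.0 TPM or more, held at most 0.44 TPM of Madcam1. Whether the Madcam1 RNA of the T-cell libraries came from T cells was not tested. Madcam1 passed the test between no pair of T populations (edgeR adjusted p from 0.195 in Tfh against CD4+ to 1 in non-Tfh against CD4+).

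**Figure D3:**
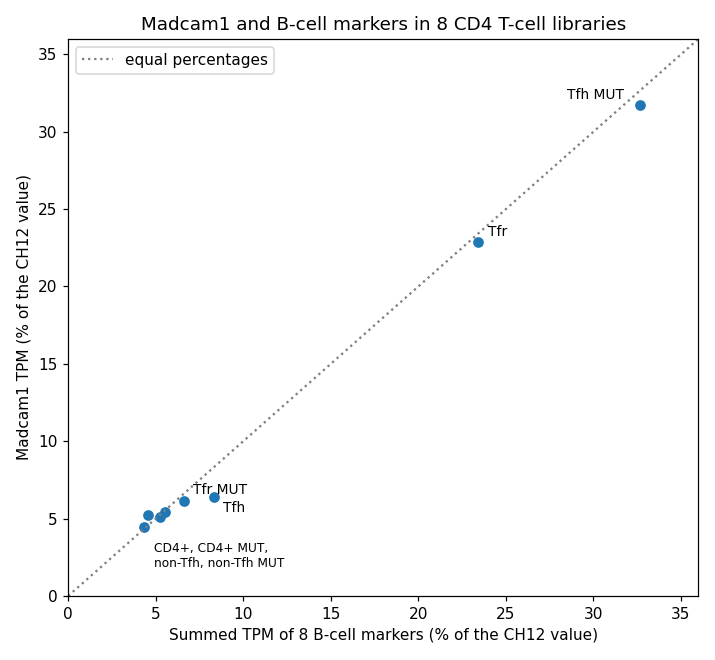
Each point is 1 of 8 CD4 T-cell libraries. The x axis gives the summed TPM of 8 B-cell markers and the y axis the TPM of Madcam1, both as a percentage of the CH12 value, and the dotted line marks equal percentages. Tfh MUT (32.67%, 31.73%) and Tfr (23.43%, 22.88%) lie apart from the other 6 libraries, which lie between 4.30% and 8.34% on the x axis.

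The ConA library, from cultured CD4+ cells stimulated with a mitogen, was compared with the 8 other CD4 T libraries by the rule of size. Of 20 eligible genes 2 were lower, Icam2 and Madcam1, and 1.39% of all eligible genes were. Icam2 was 7.29 TPM in ConA and 38.12 to 102.88 in the others (median 67.54). Madcam1 is given above with the B-cell markers, which ConA also lacked. Itgb7 was 133.85 TPM in ConA, below the range of 441.11 to 1089.88 in the other 8, and Itga4 was 46.27, below their range of 100.34 to 320.85. Both stayed inside the limit of the rule. Selp, the platelet and endothelial selectin, had its highest level of all 22 libraries in ConA, at 5.15 TPM.

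B and T lymphocytes differed in the amount and the kind of integrin RNA. In 7 primary B against 9 CD4 T libraries 33 genes were tested, 1 was higher in B cells and 17 were lower, while over all 12437 genes 23.9% were higher and 22.5% lower. The 17 include Madcam1 and Itga8, given above with the B-cell markers of the T-cell libraries and at 0.05 and 0.01 TPM in ConA. Whether their RNA came from T cells was not tested. The median log2 fold change of the 33 was -1.58, against 0.01 for all genes. Itgb2, the beta subunit of LFA-1, was 52.27 to 149.98 TPM in B cells and 294.92 to 735.48 in T cells, without overlap (-2.32 ± 0.19, edgeR adjusted p = 2.48e-07). Itgal was 94.29 to 193.59 TPM in B cells and 216.07 to 738.34 in T cells, again without overlap (-1.58 ± 0.22, edgeR adjusted p = 4.02e-05). Itgb7 was 2.61 to 210.12 TPM against 133.85 to 1089.88, with splenic B above ConA (-3.95 ± 0.78, edgeR adjusted p = 0.000829). Itga4, also called lower, was 191.59 TPM in splenic B, above both CD4+ libraries (123.15 and 100.34) and ConA (46.27). Itga6 was 2.21 to 13.18 TPM against 33.71 to 86.71 (-3.33 ± 0.38, edgeR adjusted p = 6.53e-06), and Itga7 at most 0.14 against 1.41 to 22.95 (-7.13 ± 0.74, edgeR adjusted p = 2.93e-06). Neither overlapped. The 1 gene higher in B cells was Itgax (3.31 ± 1.05, edgeR adjusted p = 0.0173). Its call was lost without splenic B, the library with 20.62 TPM against at most 2.12 in the cultures (edgeR adjusted p = 0.183), and under DESeq2 and limma. Itgb1 was also lower (-1.63 ± 0.58, edgeR adjusted p = 0.0294), although both CD4+ libraries held less than any B library. That call was lost in 5 of 16 leave-outs: without LPS+a-d-dextran B, aCD40+IL4 B, splenic B, Tfh or non-Tfh (highest edgeR adjusted p = 0.058). Without Tfh MUT and Tfr together 14 genes were called in place of 18, and Itgb1 was not among them (log2 fold change -1.43).

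The make-up of the beta subunits also differed between libraries. Itgb7 made up 61.1% of the summed beta-subunit TPM in CD4+ and 49.4% in splenic B, the largest share in both. In the activated B cultures it made up 1.8% (LPS+IL4) to 15.8% (LPS). Itgb1 made up 79.5% in the CH12 line. In Tfh the shares of Itgb1, Itgb2 and Itgb7 were 29.2%, 35.9% and 32.7%. In brain Itgb5 took 24.0% to 38.8% and Itgb8 18.3% to 31.4%. The summed beta TPM itself ran from 133.6 in putamen to 2407.8 in basophils. Among alpha subunits Itgal was the largest share in all T-cell libraries (50.6% to 69.7%), and Itgav was the largest in the 3 brain libraries (32.1% to 52.2%).

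**Figure D4:**
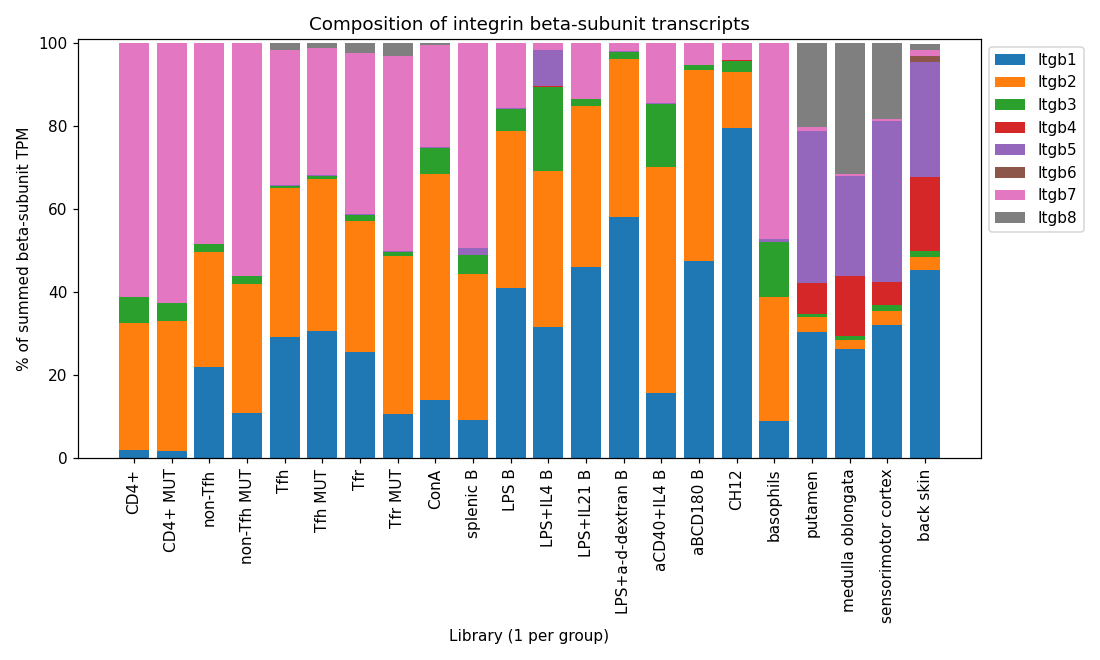
Stacked bars give the share (y axis, % of the summed TPM of the 8 beta subunits) of each integrin beta subunit in the 22 libraries (x axis). Itgb7 takes the largest share in CD4+ (61.1%), Itgb1 in CH12 (79.5%), and Itgb5 or Itgb8 in the 3 brain libraries.

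Splenic B cells had 5 of 16 eligible genes higher than all 6 activated cultures by the rule of size, Itga4, Itgad, Itgax, Itgb7 and Vcam1, where 1.48% of all eligible genes were higher. Itga4 was 191.59 TPM in splenic B, against 46.47 in LPS, 40.56 in aBCD180, 35.39 in aCD40+IL4, 28.41 in LPS+IL4, 27.40 in LPS+IL21 and 23.54 in LPS+a-d-dextran. Itgb7 was 210.12 TPM against 34.18, 9.16, 33.18, 4.91, 32.06 and 2.61 in the same order. Both subunits of the gut-homing integrin were thus lower in every culture. Vcam1, the ligand of alpha4beta1, was 76.30 TPM in splenic B and at most 0.56 in the cultures, Itgad 21.48 and at most 0.52, and Itgax 20.62 and at most 2.12. The 9 macrophage and monocyte markers summed to 481.4 TPM in splenic B and 12.6 to 48.0 in the cultures, with C1qa at 79.74 TPM in splenic B and at most 0.54 in the cultures. Their part in the levels of Vcam1, Itgad and Itgax was not tested. In a bulk library fewer cells of a type and less RNA per cell cannot be told apart.

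**Figure D5:**
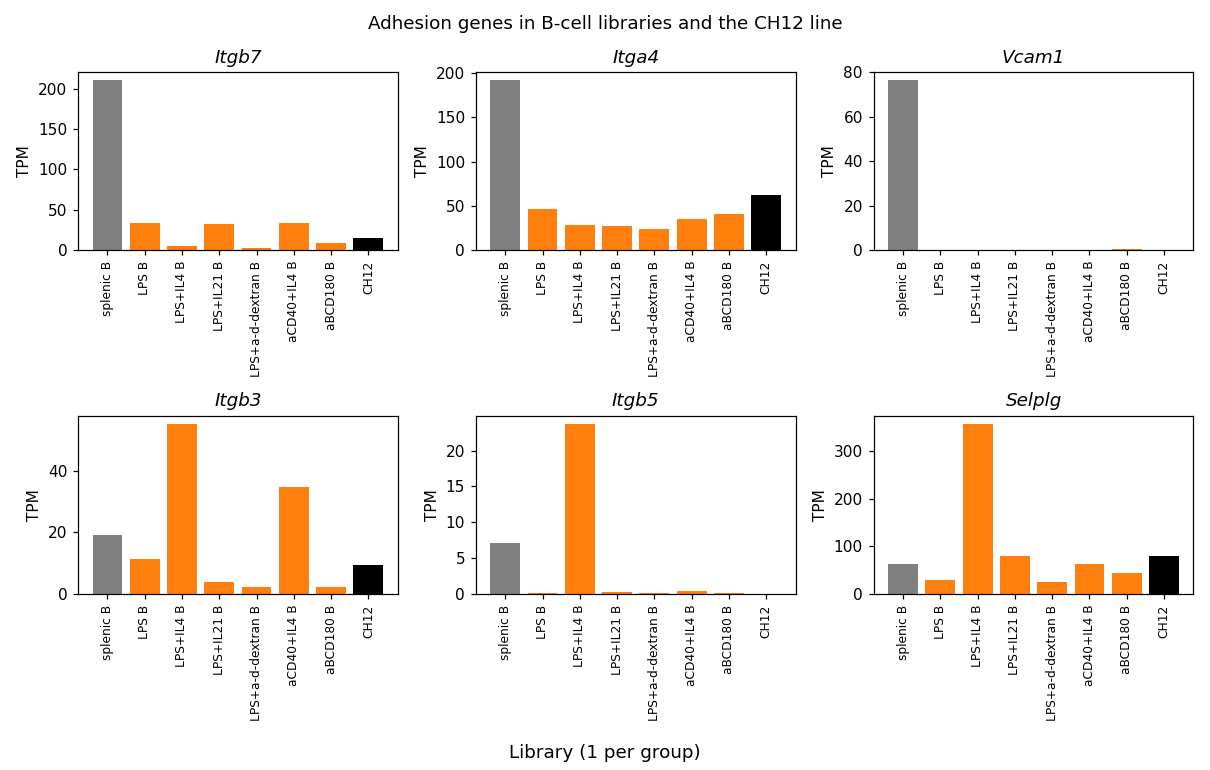
Bars give the TPM (y axis, from 0) of 6 genes in splenic B cells, 6 activated B cultures and CH12 (x axis, 1 library per bar). Itgb7, Itga4 and Vcam1 are highest in splenic B (210.12, 191.59 and 76.30), and Itgb3, Itgb5 and Selplg in LPS+IL4 (55.24, 23.69 and 356.79).

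Stimuli differed in a few genes. Itgb3 was 55.24 TPM in LPS+IL4 and 34.64 in aCD40+IL4, the cultures with the helper cytokine IL4, against 11.50 in LPS, 3.72 in LPS+IL21, 2.39 in LPS+a-d-dextran and 2.23 in aBCD180, without overlap (3.59 ± 0.60). This difference missed the threshold (edgeR adjusted p = 0.182). Selplg was 356.79 TPM in LPS+IL4 and 62.81 in aCD40+IL4, against 24.13 to 79.85 in the 4 others, and Itgb5 was 23.69 and 0.38 against 0.12 to 0.23. High levels of both thus occurred in LPS+IL4 and not in aCD40+IL4. edgeR called 0 of 25 tested genes for IL4 (4 with an unadjusted p under 0.05), DESeq2 called 2 and limma 0, and over all genes edgeR called 0.04%. Without aCD40+IL4 1 gene was called, and 1 without aBCD180. LPS+IL4 is 1 of 4 libraries whose deposited effective lengths differ slightly from the rest, and that difference's part in the result was not tested. Itgam, the alpha subunit of Mac-1, was 20.64 TPM in LPS+IL21 and at most 4.84 in the other 6 B libraries. Macrophage markers there summed to 31.4 TPM, within the range of the cultures. Lyz2 was 11.59 TPM there and at most 7.69 in the other cultures, while Adgre1 (9.65) and Cd68 (8.96) lay inside the range of the others. Their part in the Itgam level was not tested.

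Basophils had the highest summed alpha TPM of the 22 libraries, 1653.5. By the rule of size 3 of 28 eligible genes were higher than in all 16 primary lymphocyte libraries, Itga2b, Itga5 and Itgam, and 3.83% of all eligible genes were. Itga2b, the alpha subunit of the platelet fibrinogen receptor, was 981.94 TPM in basophils and at most 2.24 in the lymphocytes. Its partner Itgb3 was 316.38 TPM, against 2.23 to 84.33 in the lymphocytes. The 7 platelet and megakaryocyte markers summed to 23.2 TPM in basophils. Gp1ba made up 20.76 of that sum, against at most 3.56 in any other library, while Pf4 and Ppbp were at 1.02 and 0.04. The part of platelet RNA in the Itga2b and Itgb3 levels was not tested. The basophil and mast-cell markers summed to 37614.8 TPM. Itgam was 223.18 TPM against at most 20.64, and Itga5 32.24 against at most 5.10. Neutrophil markers summed to 3306.6 TPM in basophils (S100a8 1172.04) and macrophage markers to 1746.3 (Lyz2 1365.98), against at most 10.6 and 481.4 in the lymphocytes, and their part in the Itgam level was not tested. Itgb7 was 1135.10 TPM in basophils, the highest of all libraries, while its alpha4 partner was 20.85 and Itgae 1.69. Selplg was also highest there, at 625.24 TPM. Fut7, which completes its sugar ligand, was 200.64 TPM, past the rule, against at most 12.63 in the lymphocytes.

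In the brain, Itgb4 was the 1 gene of 31 eligible that was higher in all 3 regions than in all 18 blood-cell and CH12 libraries, at 10.16 TPM in putamen, 33.78 in medulla oblongata and 7.79 in sensorimotor cortex against at most 0.34 (11.6% of all eligible genes were higher). Its product pairs with alpha6 in attachment to laminin, and Itga6 was 6.44, 15.39 and 8.47 TPM in the same regions. Itga4, Itgal, Itgb2 and Icam1 were lower (1.77% of all genes were). Itgal was 0.37 to 0.56 TPM in brain and 94.29 to 738.34 in the cells. Itgb2 stayed at 4.98 to 5.56 TPM, and its partner Itgam, which microglia carry, was 15.14, 8.45 and 13.56. Icam5, the ICAM of forebrain neurons, was 217.53 TPM in putamen, 158.69 in sensorimotor cortex and 6.06 in medulla oblongata. It was the 1 gene of 15 eligible that was lower in the medulla by the rule (1.26% of all eligible genes). Neuron markers summed to 2797.9 TPM in putamen, 7239.9 in sensorimotor cortex and 4208.3 in medulla oblongata. Snap25 made up 3189.84 TPM of the medulla sum, against 1565.48 in putamen. Stmn2 was also higher in medulla than in putamen, while Syt1, Rbfox3, Slc17a7 and Gad1 were lower. The part of neuron content in the Icam5 levels was not tested. Vcam1 was 21.76 TPM in putamen, 20.78 in medulla oblongata and 14.90 in sensorimotor cortex, with endothelial markers at 69.5 to 82.7.

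Back skin held 1 gene of 31 eligible below all 21 other libraries by the rule, Selplg at 4.24 TPM against 24.13 to 625.24, and 0.181% of all eligible genes were lower. Itgb4, part of the anchor of basal keratinocytes, was 34.86 TPM in skin, and Itga6 and Itga3, partners of beta4 and beta1 at the basement membrane, were 17.81 and 17.68. Medulla oblongata held a like level of Itgb4, 33.78 TPM. Keratinocyte markers summed to 7474.4 TPM in skin and to 15.4 in medulla. Itgb6, an epithelial partner of alpha-v, was 2.79 TPM in skin and at most 0.14 elsewhere, and Itga11, a collagen receptor subunit, was 4.16 and at most 1.04 elsewhere. Both had their highest level in skin and stayed under the 5 TPM that the rule asks for.

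The collagen receptor subunits Itga1 and Itga2 reached 5 TPM in basophils alone, at 16.49 and 16.64. Among T cells Itga1 was 0.84 and 4.63 TPM in the non-Tfh pair, and Itga2 was 4.45 and 3.06, against at most 0.31 for either gene in the CD4+ pair. Both were called higher in non-Tfh than in CD4+ (edgeR adjusted p = 0.0436 and 0.0111), and both calls were lost without either non-Tfh or either CD4+ library (highest edgeR adjusted p = 0.314 and 0.149). The Itga1 call was also lost without either Tfr library. Itga3, a laminin receptor subunit, was highest in medulla oblongata (23.22 TPM) and ConA (20.56), and lay between 0.10 and 2.08 in primary B cells. Itga9, a receptor subunit for VCAM1 and tenascin, was 22.52 TPM in putamen, 6.01 in medulla oblongata and 3.41 in sensorimotor cortex, and 4.16 in splenic B, the only primary B library above 0.18. Itga10, a further collagen receptor subunit, was 0.30 to 4.14 TPM, with its highest level in CD4+.

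Sele and Selp, the selectins of activated endothelium and platelets, were low throughout. Sele was at most 1.73 TPM, in splenic B, and Selp was at most 1.73 outside ConA. Icam4, known from red blood cells, was 13.64 TPM in basophils and at most 4.31 in the other 21 libraries, and was lower in primary B than in CD4 T cells (-1.50 ± 0.36, edgeR adjusted p = 0.00315). It stayed at 0.52 TPM in LPS+IL21 B, where erythroid markers summed to 10336.5.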

How the data were processed

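Poly(A) RNA of 22 libraries, 1 per group, was measured by RNA-seq. Per the file headers, each gene has 3 deposited values, expected count, TPM and FPKM. The expected count is the authors' estimate of reads per gene, not normalized. The TPM was scaled by the authors for gene length and depth, and the deposited FPKM was left aside. The submitters' processing notes name CASAVA 1.8.2, RSEM, STAR and bedtools, and mm10. Settings and strand are not given in the sources used here. Effective length was 49.0 bases below length in 4 libraries (LPS+IL4, splenic B, ConA and CH12) and 48.56 to 48.57 below it in the other 18.

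Of the expected counts above 0, 86.1% were whole (within 1e-09), and the rest were rounded. Protein-coding genes were fitted with R 4.3.3 and edgeR 4.0.16 (TMM after filterByExpr, a quasi-likelihood F-test, and p-values adjusted by Benjamini-Hochberg over every gene tested, with a threshold of 0.05). The 8 CD4+, non-Tfh, Tfh and Tfr libraries had population and MUT as terms, and the 6 activated B cultures IL4 and LPS. Primary B was fitted against CD4 T libraries with no further term. Where a side rests on 1 library or on tissues, a size rule replaced the test: log2(TPM + 1) at least 2 away from every comparison library, and at least 5 TPM in the lowest library of the higher side. A gene was eligible at 5 TPM in at least 1 library compared. Tests were checked on simulated data. Alternatives were RLE size factors, no filter on low counts, DESeq2 1.42.0, limma 3.58.1 on log2(TPM + 1), IL4 as the only term, other settings of the size rule, TMM-scaled CPM, and each library left out in turn. The run without Tfh MUT and Tfr was added after seeing the data. A population left with a lone library was assumed to vary like the others.

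All 35 genes may be named. Other genes come from lists of integrin activation, matrix ligands, latent TGF-beta, selectin ligand synthesis and other adhesion genes (at most 4 per list and comparison, by size of change among those called with a mean of at least 5 TPM on the higher side), or from cell-type marker lists. The genes, lists and comparisons were chosen with earlier results of these data known. Promoters are from RefSeq (GRCm38.p6). Tables and figures used pandas 2.3.3, numpy 2.4.6 and matplotlib 3.10.9. Some genes of these lists are not reported here.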

Additional observations from a re-analysis of the deposited data

How the results depend on the processing

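Of the 843 values of called genes recomputed with 1 library left out, 662 kept their direction and call and 181 kept the direction but lost the call. Of 546 under other settings these were 530 and 16, and none of either reversed. Counts of called genes moved more. With DESeq2 they were 16 in Tfh against non-Tfh, 8 in Tfr against Tfh, 22 in Tfr against non-Tfh, 13 in non-Tfh against CD4+ and 2 for IL4. With limma non-Tfh against CD4+ gave 5, and without a filter on low counts Tfr against Tfh gave 1. Without Tfh MUT and Tfr, chosen after seeing the data, the counts in Tfh against non-Tfh, Tfr against Tfh, Tfr against non-Tfh, non-Tfh against CD4+ and MUT were 21, 10, 25, 23 and 5. With 1 library left out they ran from 0 to 16 in Tfh against non-Tfh, 0 to 5 in Tfr against Tfh, 1 to 21 in Tfr against non-Tfh, 8 to 25 in Tfh against CD4+, 10 to 23 in Tfr against CD4+, 0 to 15 in non-Tfh against CD4+, and 0 to 1 for MUT and for IL4. In primary B against CD4 T cells every setting stayed within 1.5 times the count of 18. Calls over all genes moved too. DESeq2 called 2348 of all genes in Tfh against non-Tfh and 632 in Tfr against Tfh, where edgeR called 860 and 52. Without Tfh MUT and Tfr together they rose in each comparison of the T populations. By the size rule, a minimum of 10 TPM left 1 gene for ConA and 1 for CH12. A log2 difference of at least 1 gave 6 for ConA, 7 for basophils and 4 for the medulla, and TMM-scaled CPM gave 6 for basophils and 2 for back skin. The cause of these changes was not tested, apart from the smaller groups that leaving out a library makes. RLE size factors moved the median of all genes by under 0.1 on the log2 scale. Single libraries per group limit every comparison, and the size rule has no replicate check.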
